A study of Caenorhabditis elegans with 2 samples.

Results

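In chromatin immunoprecipitation followed by sequencing (ChIP-seq) of UNC-62, 1263 peaks of middling strength stayed outside the list that passed the reproducibility threshold of the authors, yet were found in both replicates. They are 6.64% of the 19023 peaks called on the pooled reads, and were selected on measured values: a pooled signal from 20 to under 31, no overlap with a thresholded peak, an overlap of at least 1 bp with a peak of each replicate, and a place on a nuclear chromosome. The signal is the authors' own value for the strength of a peak. The worms were of strain OP600, with the allele unc119(ed3) and the transgene wgIs600, which holds unc-62::TY1 EGFP FLAG and unc119. They were taken as mixed sex young adults at 4 days, 2 biological replicates formed the 1 group, and DNA fragments measured 150 to 350 bp per the labels. The antibody label gives unc-62 where the sample description gives an eGFP fusion, and any share of untagged protein in the peaks was not tested. Whole worms were used, so a site bound strongly in few cells and a site bound weakly in many cannot be told apart. Read depth is unknown, and the peak lists carry no error for a single peak beyond the values of the 2 replicates.

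UNC-62 is the worm member of the Meis and Homothorax group of homeodomain regulators. Proteins of this group bind DNA together with Pbx-type partners, and often with Hox proteins, around a short core written here as TGACAG. In the worm UNC-62 is known for body patterning in the embryo and, in the adult intestine, for control of the vitellogenin genes, which encode yolk proteins. GATA factors are the main known activators of intestinal genes and recognise sites around GATAA.

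The 9 windows of 101 bp around peak centres printed here were chosen after the values were seen. They are examples with and without TGACAG or a GATA site, 2 of them from thresholded peaks, and do not stand for the class. All are printed 5′ to 3′ on the strand of the named gene, from the RefSeq sequence of WBcel235 (ce11), and capitals mark TGACAG and the GATA word TGATAA on either strand, where the reverse complements are CTGTCA and TTATCA. The first set is shown to set 3 yolk gene promoters with mid-strength peaks beside the 2 with thresholded peaks.
vit-3: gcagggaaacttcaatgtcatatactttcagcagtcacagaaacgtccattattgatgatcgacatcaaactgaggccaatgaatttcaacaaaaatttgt
vit-4: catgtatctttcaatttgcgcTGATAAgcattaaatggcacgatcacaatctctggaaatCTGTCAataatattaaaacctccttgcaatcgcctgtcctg
vit-5: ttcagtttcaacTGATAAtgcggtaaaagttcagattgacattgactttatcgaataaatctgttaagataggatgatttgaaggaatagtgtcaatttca
vit-2: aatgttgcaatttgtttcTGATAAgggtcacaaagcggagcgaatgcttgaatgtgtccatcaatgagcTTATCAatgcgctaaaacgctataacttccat
vit-6: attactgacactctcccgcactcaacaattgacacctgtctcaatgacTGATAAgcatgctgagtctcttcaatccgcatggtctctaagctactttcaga
The mid-strength windows are those of vit-3 (chrX:3572706-3572806, minus strand), vit-4 (chrX:3564023-3564123, minus strand) and vit-5 (chrX:3403333-3403433, plus strand). The thresholded ones are those of vit-2 (chrX:5100865-5100965, plus strand) and vit-6 (chrIV:8260967-8261067, plus strand). TGACAG stood in the vit-4 window alone of these 5, and TGATAA in all but that of vit-3.

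A second set is shown to set windows with and without the words side by side: those upstream of ulp-4 and fat-4 with TGACAG, and those at rps-4 and hlh-30 with neither word.
ulp-4: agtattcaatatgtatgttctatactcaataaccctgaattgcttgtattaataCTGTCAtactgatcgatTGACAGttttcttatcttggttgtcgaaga
fat-4: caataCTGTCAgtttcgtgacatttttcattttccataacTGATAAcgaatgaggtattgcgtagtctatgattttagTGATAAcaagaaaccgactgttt
rps-4: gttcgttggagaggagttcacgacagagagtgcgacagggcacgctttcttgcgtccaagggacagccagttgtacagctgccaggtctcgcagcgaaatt
hlh-30: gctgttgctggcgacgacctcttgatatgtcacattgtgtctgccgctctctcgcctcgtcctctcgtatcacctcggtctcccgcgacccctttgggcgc
The ulp-4 window (chrII:8129507-8129607, plus strand) held TGACAG 2 times, and the fat-4 window (chrIV:9801614-9801714, plus strand) held it 1 time beside 2 copies of TGATAA. The rps-4 window (chrIV:7084909-7085009, minus strand) had a GC content of 56.4% and the hlh-30 window (chrIV:4028261-4028361, minus strand) one of 61.4%, against a genome value of 35.4%. Both are high for the class, where the median window had 40.6% and the upper quartile was 47.5%. A window with neither word is common: TGACAG was in 10.1% and TGATAA in 25.3% of mid-strength windows. The fat-4 and hlh-30 windows lie inside a longer transcript of their gene, upstream of another of its annotated starts.

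The selection can be followed in counts. The pooled list held 18993 nuclear and 30 mitochondrial peaks, and 1385 nuclear peaks had a signal in the chosen range. Of these, 10 overlapped a thresholded peak and 1375 did not. Of the 1375, 112 had no overlapping peak in one of the replicate lists, 99 of them in replicate 1 and 13 in replicate 2, which left 1263. The relaxed lists of replicates 1 and 2 are long, with 30000 and 28092 peaks, and go down to signals of 3.19 and 4.75, so that a place on both asks for little strength. The thresholded list held 815 nuclear peaks, and these were all 815 nuclear pooled peaks with a signal of 31.2 or more. The mid-strength peaks were therefore the next weaker class by pooled signal, with 10 further peaks between 31 and that value in neither class. All 1263 were 320 bp wide with the deposited summit at the centre, and they formed 1255 clusters when peaks within 500 bp were joined. As a class on the other side, 5148 nuclear peaks with a signal of 10 to under 20, also outside the thresholded list and found in both replicates, are called weaker peaks.

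The values that chose the peaks are given as a description. The median pooled signal was 23.9 in mid-strength peaks, 39.7 in thresholded peaks and 13.4 in weaker peaks. In replicate 1 the median signal of the overlapping peak was 8.73 for mid-strength peaks (range 3.19 to 25.2), 14.8 for thresholded and 5.39 for weaker peaks. In replicate 2 it was 14.9 for mid-strength peaks (range 4.76 to 34.7), 26.5 for thresholded and 7.98 for weaker peaks. Replicate 2 gave the higher value in 1041 of 1263 mid-strength peaks and in 733 of the 807 thresholded peaks with a peak in both replicates, although the scales of both lists are not stated to be shared. The −log10 q-value deposited with the pooled peaks ran from 1.84 to 3.40 in the mid-strength peaks with a median of 2.52, was at least 2 in 1067 of them, and was at its ceiling of 3.40 in 380. It was 3.40 in every thresholded peak. The overlapping peaks in the replicate lists were less certain. For mid-strength peaks their −log10 q-value had a lower quartile of 0.968 in replicate 1 and 1.52 in replicate 2. The lowest values were 0.0712 and 0.0187. For thresholded peaks the lower quartiles were 3.45 and 3.34. A place on both replicate lists is thus not a low q-value in each replicate.

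Strength in the replicates overlapped between the classes. The smaller of the 2 replicate signals was above the thresholded median of 14.4 in 17 mid-strength peaks, and at or above the thresholded lower quartile of 10.9 in 245. When each replicate list was cut to its 843 strongest peaks, the number on the thresholded list with its mitochondrial peaks, 189 mid-strength peaks stood among those of replicate 1, 126 among those of replicate 2, and 7 among both. Pooled and replicate summits lay a median of 28 bp apart in replicate 1 and 15 bp apart in replicate 2 for mid-strength peaks, against 20 and 12 bp for thresholded peaks.

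**Figure D1:**
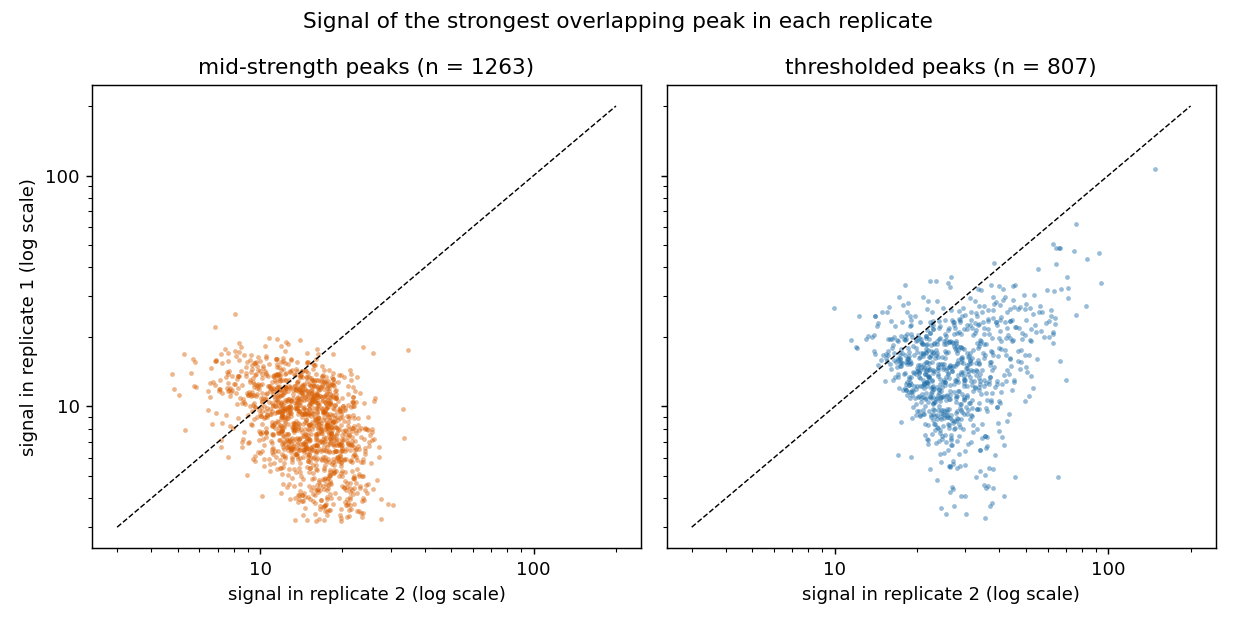
Signal of the strongest overlapping peak in replicate 1 against that in replicate 2, both on log axes, for the 1263 mid-strength peaks (left) and the 807 thresholded peaks found in both replicates (right). The dashed line marks equal values, and 1041 of the mid-strength peaks lie below it.

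Close to the limits of the selection, pooled signals ran on without a gap. Just inside the lower limit were peaks near F52B11.5 (20.002), ZK673.2 (20.007), C54G4.2 (20.007), plpr-1 (20.008) and ocr-3 (20.017). Just outside it were peaks near hot-8 (19.998), cth-2 (19.995), frm-7 (19.986), F16A11.1 (19.985) and pmk-2 (19.982). Just inside the upper limit were peaks near F49H6.5 (30.989), ZK370.4 (30.919), aakg-5 (30.918), ZK899.1 (30.914) and T10C6.15 (30.904). The nearest above it, in neither class, were near Y39E4B.6 (31.002), seu-1 (31.024), ins-11 (31.048), egl-27 (31.066) and F19H6.5 (31.082). The weakest thresholded peaks lay near W01D2.3 (31.163), fbxa-26 (31.187), cox-5B (31.200), dnbp-1 (31.203) and W05H9.4 (31.231).

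The 12 mid-strength peaks with the highest smaller replicate signal were named by rule, and 6 of them lay in promoters. The first was in an intron of let-526 (chrI:5316444-5316763), which encodes a subunit of a SWI/SNF chromatin remodeller. It had a pooled signal of 29.9, with 18.1 in replicate 1 and 23.9 in replicate 2. Upstream of ulp-4, a SUMO protease gene (chrII:8129397-8129716), the values were 29.2 pooled, 17.6 in replicate 1 and 16.1 in replicate 2. This peak was the only one of the 12 with TGACAG within 50 bp of its centre. Introns of ppfr-1, a regulatory subunit of protein phosphatase 4, and of zip-5, a bZIP factor, held 2 more, with pooled signals of 26.7 and 21.4. One peak at the promoters of Y48B6A.1 and rpl-43, a ribosomal protein gene, had a pooled signal of 30.7 with 16 in replicate 1 and 15.9 in replicate 2. Promoter peaks of pmpl-1 (28.5), F47D12.9 (28.9), F09F7.6 (27.9) and C34H4.2 (30.9) complete the promoter group. The others lay near T23G4.127 (21.2, in a 3′ UTR), T01B10.5 (20.5, intergenic) and T24D8.6 (30.1, in a noncoding gene), each value again a pooled signal. The rank rests on the strongest overlapping replicate peak, which need not share the pooled summit. Over all mid-strength peaks these summits lay up to 302 bp away in replicate 1 and 324 bp in replicate 2. At T23G4.127 the replicate values were 17.5 and 34.7, the second above the pooled one.

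Location had no part in the selection, so it could be tested. Promoters took just over 50% of the mid-strength peaks, a share that did not differ detectably from that of thresholded peaks and was higher than that of weaker peaks. A promoter reached 1000 bp upstream and 200 bp downstream from the start of a protein-coding transcript in Ensembl release 115. It held 651 mid-strength centres (51.5%) and 425 thresholded centres (52.1%), a difference of -0.603 percentage points (95% interval -4.99 to 3.79, odds ratio 0.976, Fisher's exact test, two-sided, adjusted p = 0.822). Among weaker peaks 39.3% of centres were in promoters, so that the mid-strength share was 12.2 points higher (9.18 to 15.3, odds ratio 1.64, Fisher's exact adjusted p = 2.8e-14). In all nuclear peaks of the pooled list the share was 36.6%. The p-values here and below run over peaks, which are not replicates, and describe these lists rather than the spread between worms.

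Gene bodies separated the mid-strength from the weaker peaks. Introns held 212 mid-strength centres (16.8%), against 16.3% of thresholded centres (Fisher's exact adjusted p = 0.822) and 24.3% of weaker centres (difference -7.52 points, -9.81 to -5.07, Fisher's exact adjusted p = 2.9e-08). Coding sequence held 25 mid-strength centres (1.98%), against 1.10% of thresholded (difference 0.875 points, -0.294 to 1.94, Fisher's exact adjusted p = 0.341) and 8.43% of weaker centres (Fisher's exact adjusted p = 4.8e-18). The 3′ UTR held 1.58% of mid-strength centres, against 0.859% of thresholded (Fisher's exact adjusted p = 0.341) and 3.01% of weaker centres (Fisher's exact adjusted p = 0.0173). Intergenic sequence held 25.2% of mid-strength centres, against 26.9% of thresholded and 22.2% of weaker centres, and neither difference passed (Fisher's exact adjusted p = 0.608 and 0.0693). None of the 7 classes told mid-strength from thresholded peaks, with 95% intervals of the differences reaching at most 5.60 points either way.

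**Figure D2:**
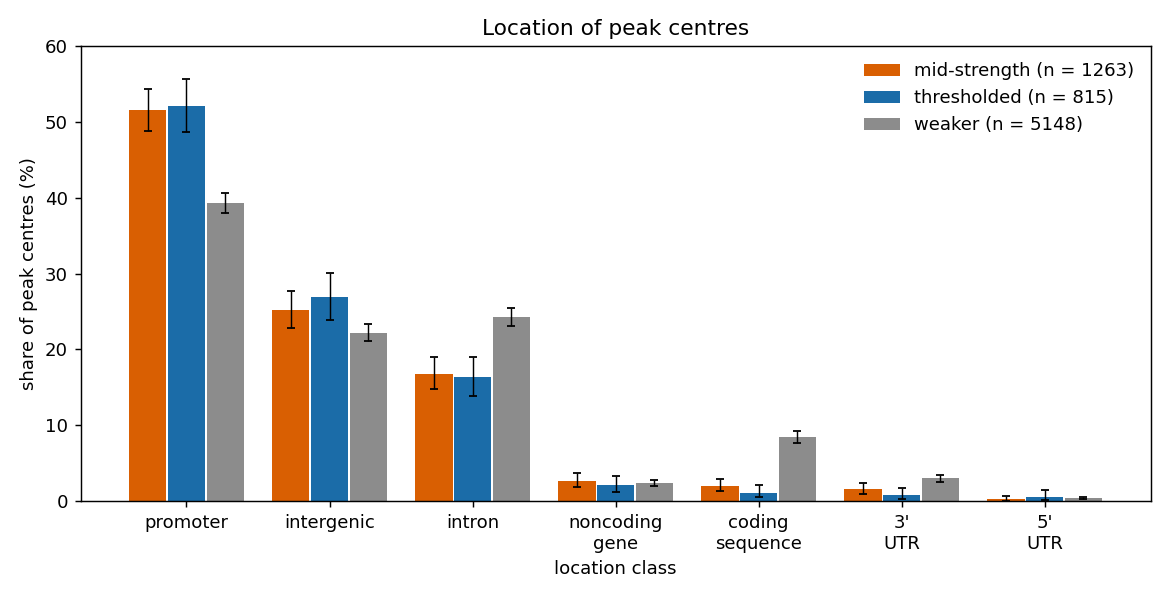
Share of peak centres in each location class, in percent, for 1263 mid-strength, 815 thresholded and 5148 weaker peaks, with exact 95% intervals that cover counting of peaks. The promoter bars stand at 51.5, 52.1 and 39.3%, and the coding bars at 1.98, 1.10 and 8.43%.

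The mid-strength peaks gathered just upstream of starts. The nearest protein-coding start lay 0 to 500 bp downstream of the centre for 439 of them (34.8%), against 33.3% of thresholded and 22.2% of weaker peaks. The next 500 bp upstream held 10.1% of mid-strength, 13.1% of thresholded and 9.32% of weaker centres. More than 500 bp downstream of the start lay 19.6% of mid-strength, 21.1% of thresholded and 31.3% of weaker centres. Of the 1263 centres, 517 were in the promoter of 1 gene, 130 in those of 2 genes and 4 in those of 3.

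Distances to stronger peaks varied widely. The median distance from a mid-strength centre to the nearest thresholded centre was 28814 bp and the shortest 407 bp, with 58 mid-strength peaks within 1000 bp and 280 (22.2%) within 5000 bp. The same distances were not taken for other peaks, so these counts do not show whether mid-strength peaks lie unusually close.

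Chromosome X held 301 mid-strength peaks (23.8%), the most of any chromosome, while it makes up 17.7% of the nuclear length. The density was 17 per Mb on X, against 12.6 per Mb over all nuclear chromosomes and 9.65 per Mb on chromosome V, the lowest. Of thresholded peaks 26.7% were on X (difference -2.92 points, -6.79 to 0.884, Fisher's exact test, two-sided, adjusted p = 0.146) and of weaker peaks 20.9% (difference 2.91 points, 0.376 to 5.57, Fisher's exact adjusted p = 0.0532). The second of these passed the threshold of 0.05 when either replicate was not required, at adjusted p = 0.0150 without replicate 1 and 0.00472 without replicate 2 by the same Fisher's exact test. That change also enlarged the weaker class, from 5148 peaks to 8588 without replicate 1 and 7061 without replicate 2. The mid-strength share on X was then 24.1 and 24.0%. Within chromosomes, 63.3% of mid-strength and 64.3% of thresholded centres lay in the central 50% of the chromosome.

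Mid-strength peaks differed from thresholded ones in the Meis core. TGACAG stood within 50 bp of the centre in 128 mid-strength peaks (10.1%) and 179 thresholded peaks (22%), a difference of -11.8 points (-15.2 to -8.58, odds ratio 0.401, Fisher's exact test, two-sided, adjusted p = 7.8e-13 over 4 words and both contrasts). Against weaker peaks, of which 5.57% had it, the mid-strength share was 4.56 points higher (2.88 to 6.44, odds ratio 1.91, Fisher's exact adjusted p = 4.4e-08). For comparison, the word was in 3.41% of all 101-bp windows of the nuclear genome and in 5.79% of the nuclear peaks of the pooled list. Single windows need not follow these shares: of those printed above, mid-strength vit-4 has the word and thresholded vit-2 and vit-6 do not, while ulp-4 and fat-4 were printed because they have it.

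For the other 3 words the shares of mid-strength and thresholded peaks did not differ past the threshold. TGATAA, the GATA word, was in 25.3% of mid-strength and 28.5% of thresholded windows (difference -3.13 points, -7.08 to 0.750, Fisher's exact adjusted p = 0.154), and in 14.1% of weaker windows (difference 11.2 points, 8.72 to 13.9, Fisher's exact adjusted p = 1.7e-19). GAGAGA, a GA repeat common in worm promoters, was in 19.5% of mid-strength and 18.3% of thresholded windows (difference 1.20 points, -2.30 to 4.58, Fisher's exact adjusted p = 0.604), and in 10.3% of weaker windows (Fisher's exact adjusted p = 1.1e-16). TGATTGAT, a composite Pbx and Hox word, was in 2.30% of mid-strength and 1.96% of thresholded windows (Fisher's exact adjusted p = 0.647), against 1.11% of weaker windows (Fisher's exact adjusted p = 0.00372). The genome shares of these words were 9.35%, 5.18% and 0.665%. GC content moved with the classes against the weaker peaks: the median was 40.6% in mid-strength, 41.6% in thresholded and 35.6% in weaker windows. In windows of 35 to 45% GC, a choice made after seeing the data, TGACAG was in 12.6% of mid-strength and 23.6% of thresholded windows (Fisher's exact adjusted p = 3.4e-04), and in 7.14% of weaker windows (Fisher's exact adjusted p = 8.1e-04).

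The share of windows with TGACAG was higher in bins of higher pooled signal, with the mid-strength bins between the weaker and the stronger ones. Change within the mid-strength class was not tested. The share was 8.82% at a signal of 20 to 22 (exact 95% interval 6.15 to 12.2), 9.02% at 22 to 25 (6.36 to 12.3), 12.6% at 25 to 28 (9.02 to 16.9) and 11.1% at 28 to 31 (7.18 to 16.2), and these intervals overlap. Below the class it was 3.51% at 8 to 10 and 6.57% at 15 to 20, and above it 16% at 31 to 35, 22% at 50 to 70 and 41.5% in the 65 peaks of 70 and above. The GATA word had another course: 17% at 15 to 20, between 23.8 and 27.9% in the 4 mid-strength bins, and between 18.5 and 32% in the 5 bins above. By the smaller replicate signal, TGACAG was in 11.2% of the 421 mid-strength peaks with the lowest values, 7.84% of the 421 in the middle and 11.4% of the 421 with the highest.

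**Figure D3:**
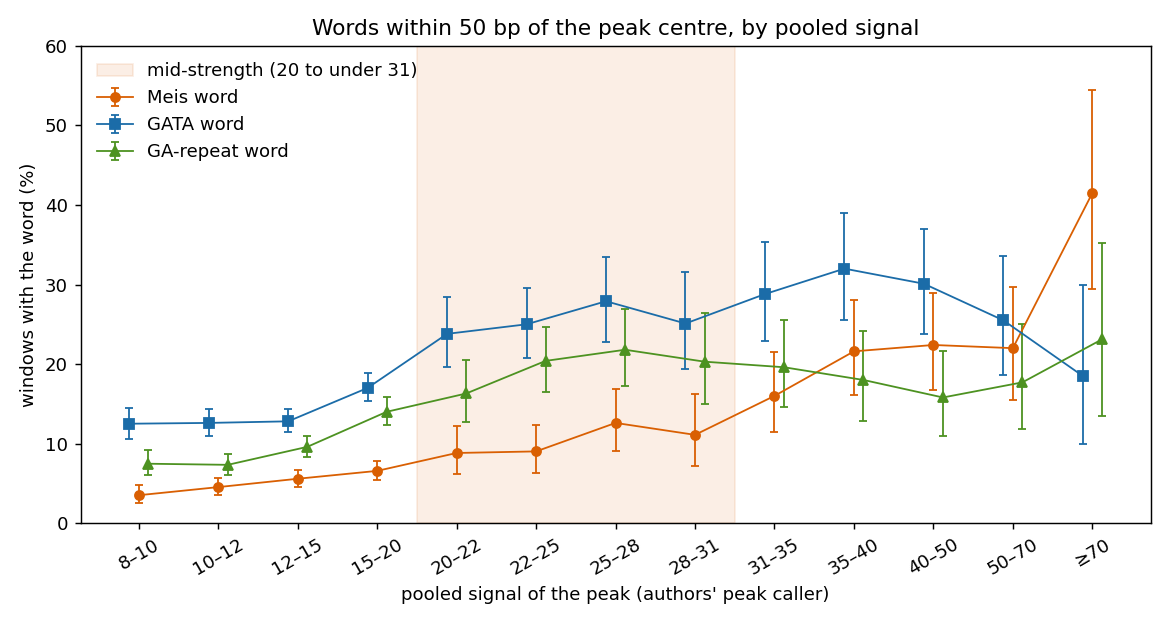
Share of 101-bp windows with the Meis, GATA and GA-repeat words, in percent, by pooled signal of the peak, with exact 95% intervals that cover counting of peaks. The shaded bins are the mid-strength peaks: the Meis word lies between 8.82 and 12.6% there and reaches 41.5% in the strongest bin.

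The lower share of TGACAG held at promoters and elsewhere. In promoters 7.68% of mid-strength and 20% of thresholded windows had it (Fisher's exact adjusted p = 2.1e-08), and outside promoters 12.7% and 24.1% (Fisher's exact adjusted p = 9.4e-06). Both splits were chosen after seeing the data. By class, TGACAG was in 12.7% of mid-strength and 18.8% of thresholded intron windows, and in 13.2% of mid-strength and 27.4% of thresholded intergenic windows.

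Where TGACAG did occur, it was denser at the centre of the peak than beside it. Per base, it was 2.30 times as frequent within 50 bp of the centre as at 50 to 150 bp in mid-strength peaks, 3.76 times in thresholded and 1.44 times in weaker peaks. For the GATA word these ratios were 1.51 in mid-strength, 1.53 in thresholded and 1.15 in weaker peaks. The ratios are descriptions and the differences between them were not tested. The longer form TTGACAG was in 54 mid-strength windows (4.28%), against 10.3% of thresholded and 2.08% of weaker windows, so that 42.2% of mid-strength and 46.9% of thresholded windows with the core had it.

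**Figure D4:**
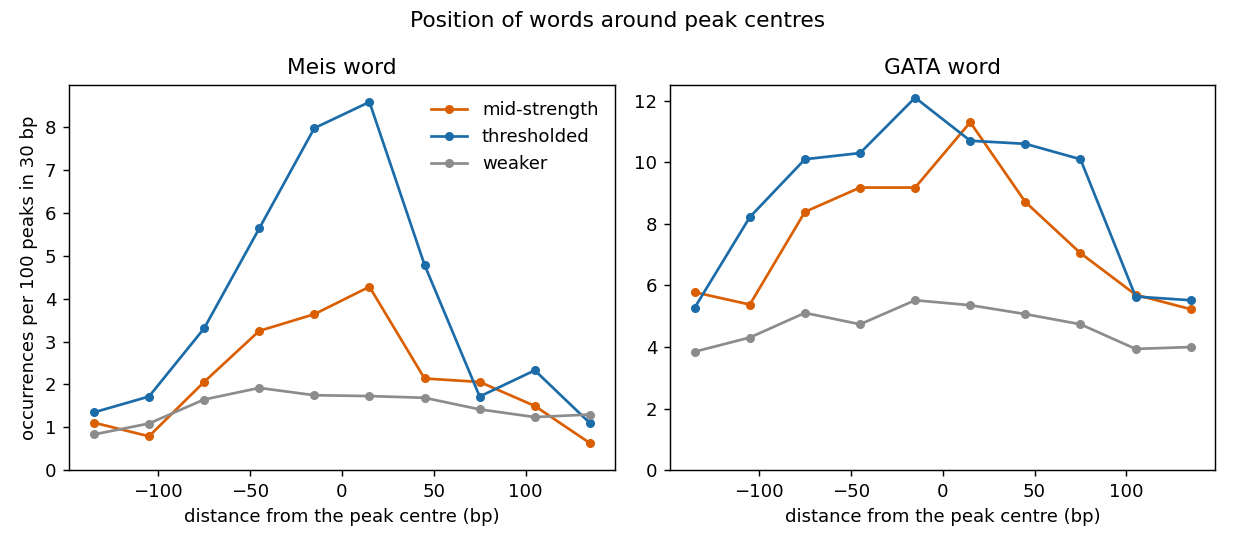
Occurrences of the Meis word (left) and the GATA word (right) per 100 peaks in 30-bp steps of distance from the peak centre, both strands, for mid-strength, thresholded and weaker peaks. The Meis word rises towards the centre 2.30 times over its flank in mid-strength peaks and 3.76 times in thresholded peaks.

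A scan of all 2080 words of 6 letters, each counted with its reverse complement, put the Meis core first. Against thresholded peaks, 6 words (0.288%) were less frequent in mid-strength windows and 5 (0.240%) more frequent at a Fisher's exact adjusted p under 0.05. The lowest adjusted p was that of TGACAG (6.1e-10 over all words, Fisher's exact test), followed by TTGACA, in 14.3% of mid-strength and 27% of thresholded windows (Fisher's exact adjusted p = 1.2e-09), and GTCAAT, in 10.4% and 18.7% (Fisher's exact adjusted p = 9.3e-05). These words overlap TGACAG or each other by several letters: 9.58% of mid-strength and 15.7% of thresholded windows had TTGACA without TGACAG. The other less frequent words share letters with the core too: GACAGG was in 5.78% of mid-strength and 10.7% of thresholded windows, TGACAT in 10.9% and 16.9%, and TGTCAT in 11.5% and 17.3% (Fisher's exact adjusted p from 0.0277 to 0.0412). The more frequent ones were AATTTA, in 10.6% of mid-strength and 4.79% of thresholded windows (Fisher's exact adjusted p = 1.0e-03), and GCCCAA, in 2.85% of mid-strength and 0.613% of thresholded windows (Fisher's exact adjusted p = 0.0494). The remaining 3 consist of A and T alone, and the one of them with the lowest p, TTAAAT, was in 8.79% of mid-strength and 4.42% of thresholded windows. Against weaker peaks 176 words (8.46%) were less frequent and 278 (13.4%) more frequent. The 5 lowest p-values belonged to words of A and T alone, each less frequent in mid-strength windows, which stands beside the GC difference of 40.6 against 35.6%, and TGATAA came sixth, more frequent in mid-strength windows.

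Of 19973 nuclear protein-coding genes, 774 (3.88%) had a mid-strength centre in a promoter and 486 (2.43%) a thresholded one. Both kinds met at 37 genes, which are 4.78% of the genes with a mid-strength and 7.61% of those with a thresholded peak. A peak centre of either kind was in a promoter of 1223 genes (6.12%), and whether the mid-strength ones mark binding was not tested. The listed gene was the nearest start for 632 of the 774. Among genes named below, another gene had the nearer start at eef-1A.1, ears-1, snr-2, cct-1, pfd-1, ucr-2.1, ubq-2, usp-33 and acdh-9. The same held at clec-240, srh-2, srj-49 and srh-166, and at the ribosomal protein and proteasome genes described so. Those peaks cannot be assigned to the listed gene alone. The 27 gene lists below were chosen with earlier results of these data known and are described by counts, with no test. The median pooled signal at these promoters was 24.1 over all genes with a mid-strength peak.

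Yolk genes were split between the classes. Of 6 vitellogenin genes, 3 had a mid-strength peak and 2 a thresholded one. At vit-3 (-207 bp from the start, negative being upstream) the signal was 27.6 pooled, 10.1 in replicate 1 and 20.1 in replicate 2. At vit-4 (-108 bp) it was 22.1 pooled, 16.1 in replicate 1 and 5.68 in replicate 2, one of the cases with replicate 1 higher. At vit-5 (-88 bp) it was 23.3 pooled, 10.7 in replicate 1 and 13.9 in replicate 2. The thresholded peaks were those of vit-2 (63.1 pooled, 16.6 and 49.4 in the replicates) and vit-6 (73.0 pooled, 26.8 and 45.1). In each replicate the values of vit-3, vit-4 and vit-5 lay below those of vit-2 and vit-6, with vit-4 close to vit-2 in replicate 1. A peak upstream of vit-1 had 21.9 pooled and 15.9 in replicate 1 but no overlapping peak in replicate 2, which kept it out of the class. The vitellogenin genes are close copies of each other, in particular vit-3, vit-4 and vit-5, and how reads that match several of them were assigned is not given in the sources used here, so their single values are uncertain.

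Among 11 TALE and Hox genes, which encode UNC-62, its Pbx-type partners and the Hox proteins, 2 had a mid-strength and 4 a thresholded peak. The Hox gene ceh-13, the labial-type member, had a peak at -808 bp with 25.7 pooled, 5.80 in replicate 1 and 21.3 in replicate 2. A mid-strength peak at 121 bp from a start of unc-62 itself (23.4 pooled, 6.02 and 14.4 in the replicates) stood beside a thresholded peak of 79.1 at another start, and the transgene carries unc-62 sequence too. The Pbx-type genes ceh-20 (107), ceh-40 (31.7) and ceh-60 (50.9) had thresholded peaks, with pooled signals in brackets. The Hox genes lin-39 and mab-5 had only relaxed peaks of 10.2 and 9.92, each missing from one replicate list, and egl-5, nob-1 and php-3 and the TALE gene psa-3 had no peak in the pooled list at their promoters.

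Genes of 2 protein synthesis lists often had a mid-strength peak centre in a promoter. Of 78 ribosomal protein genes, 22 (28.2%) had a mid-strength peak and 17 (21.8%) a thresholded one, against 3.88% and 2.43% of all genes, and 38 (48.7%) had either. The highest were rpl-4 (30.8 pooled, 13.7 in replicate 1 and 17 in replicate 2), rpl-43 (30.7, with 16 and 15.9), rpl-25.2 (29.3, with 13.4 and 14.2) and rps-13 (27.3, with 10.7 and 16.9). The 22 genes had a median signal of 24.7 over 20 distinct peaks, since rps-10 shared one with rpl-24.1 and rpl-36 one with rps-14. Another gene had the nearer start for 11 of the 22, such as nfx-1 at the rps-13 peak. The rps-4 window printed above (25.7 pooled, 13.7 and 13.4) belongs to 1 of the 22 that is itself the nearest gene. TGACAG was within 50 bp of the centre at none of the 22 and at 55 of all 774 genes, a share so low that nothing is read from the 0.

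Of 43 translation factor genes, 9 (20.9%) had a mid-strength and 4 (9.30%) a thresholded peak. The elongation factor gene eef-2 had 28.5 pooled, 11.3 in replicate 1 and 16.2 in replicate 2, and eef-1A.1, whose product brings charged tRNA to the ribosome, had 26.7, with 13.7 and 14.0. They were joined by eef-1B.1 (27.8), an exchange factor for that protein, and the release factor gene erfa-3 (23.8). Of 32 aminoacyl-tRNA synthetase genes 1 (3.12%), ears-1, had a mid-strength peak, a share at the background.

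The insulin and TOR pathway, which sets growth and lifespan in the worm, had 6 of 20 genes (30%) with a mid-strength and 1 (5.0%) with a thresholded peak. At daf-16, the FOXO factor that insulin signalling holds back, the signal was 29.9 pooled, 13.6 in replicate 1 and 16.9 in replicate 2. At hlh-30, the TFEB-type activator of autophagy genes printed above, it was 29.6 pooled, 9.47 in replicate 1 and 19.1 in replicate 2. The kinase genes sgk-1 (29.6, with 8.33 and 22.8) and rsks-1 (27.7, with 11.3 and 19) followed. The 6 peaks had a median signal of 28.6, and each had its listed gene as the nearest start. None of the 39 insulin-like peptide genes had a mid-strength peak and 2 (5.13%) had a thresholded one. The shares of all genes were 3.88% and 2.43%, so little can be read from this 0. daf-16 was also the only one of 11 regulators of yolk production with a mid-strength peak (9.09%), while 3 (27.3%) had a thresholded one. These shares rest on few genes and were not tested.

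Of 47 splicing genes, 6 (12.8%) had a mid-strength peak, against 3.88% of all genes. None had a thresholded peak, on a background of 2.43% of all genes that leaves 0 of 47 uninformative, and the difference was not tested. The 6 included snr-2, an Sm core protein gene (29.2 pooled, 8.61 in replicate 1 and 21 in replicate 2), the SR protein gene rsp-6 (29.1, with 9.88 and 20.5), and the spliceosome genes prp-40 (25.5) and prp-8 (25.3). Of 67 chaperone genes, 11 (16.4%) had a mid-strength and 5 (7.46%) a thresholded peak. They included the chaperonin subunit cct-1 (29.5, with 6.19 and 22.2, TGACAG present), the prefoldin subunit pfd-1 (29.3), the Hsc70 gene hsp-1 (29.1) and the calreticulin gene crt-1 (27.8).

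Of 43 respiratory chain genes, 7 (16.3%) had a mid-strength and 6 (14.0%) a thresholded peak. The mid-strength ones included ucr-2.2 (28.5) and ucr-2.1 (25.9), which encode core subunits of the cytochrome bc1 complex, and the ATP synthase genes atp-1 (25.1) and atp-2 (24.4). Of 42 genes of ubiquitin and SUMO conjugation, 5 (11.9%) had a mid-strength and 2 a thresholded peak, among them ubc-6 (28.4), a conjugating enzyme, ubq-2 (26.4), ubiquitin fused to a ribosomal protein, and usp-33 (21.6), beside ulp-4. The proteasome list had 2 of 33 (6.06%) with a mid-strength peak, pas-4 (21.6) and pas-3 (20.2), each with a start of another gene nearer.

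Fat and gut genes followed. Of 69 genes of lipid metabolism, 7 (10.1%) had a mid-strength and 3 (4.35%) a thresholded peak. At fat-4, a desaturase gene for polyunsaturated fatty acids, the signal was 30.1 pooled, 11.3 in replicate 1 and 17.5 in replicate 2. The stearoyl-CoA desaturase gene fat-6 (29.1, with 11.6 and 14.1) had a thresholded peak as well. They were joined by acdh-9 (26.2), an acyl-CoA dehydrogenase gene, and the elongase gene elo-6 (24.8). Of 18 intestinal markers, 4 (22.2%) had a mid-strength and 1 a thresholded peak: the protease gene cpr-6 (29.8, with 10.9 and 15.5), the lysozyme genes lys-8 (27.7) and lys-1 (20.8) and the saposin-like gene spp-5 (25.1).

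Several lists were near or below the background of 3.88%. Nuclear hormone receptors, a large family of ligand-regulated factors, had 14 of 274 (5.11%), led by nhr-97 (27.8), nhr-131 (27.5), nhr-206 (27) and nhr-32 (26.3). Detoxification genes of the cytochrome P450 and glucuronosyltransferase families had 5 of 141 (3.55%) with a mid-strength peak and 10 (7.09%) with a thresholded one, the mid-strength ones including cyp-33E3 (30.4) and ugt-54 (26.9) with TGACAG, and ugt-50 (28.3) and ugt-53 (25.7) without. C-type lectin genes had 7 of 240 (2.92%), led by clec-78 (28.7), clec-240 (26.2), clec-265 (25.4) and clec-186 (25.2). Chemoreceptor genes had 9 of 1308 (0.688%), led by srh-2, sre-23, srj-49 and srh-166. The ceh homeobox genes had 1 of 63, ceh-13, against 5 with a thresholded peak, and of 10 GATA factor genes elt-1 alone (23.4), which specifies epidermis in the embryo, had a mid-strength peak.

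No gene of the V-ATPase, the proton pump of acid organelles, had a mid-strength peak, while 4 of 21 (19%) had a thresholded one. None of 20 muscle, 20 germline and oocyte, and 72 histone genes had a mid-strength peak either. On a background of 3.88% of all genes little can be read from a 0 in lists of these sizes, and no difference was tested. Of 20 neuronal markers 1 had a mid-strength peak, the syntaxin gene unc-64 (23.5, TGACAG present). The list built for cuticle collagens and body form had 3 of 194 (1.55%), and none of the 3 is a collagen: dpy-22 encodes a Mediator subunit, dpy-23 a clathrin adaptor subunit and dpy-27 a condensin-like subunit of the dosage compensation complex.

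**Figure D5:**
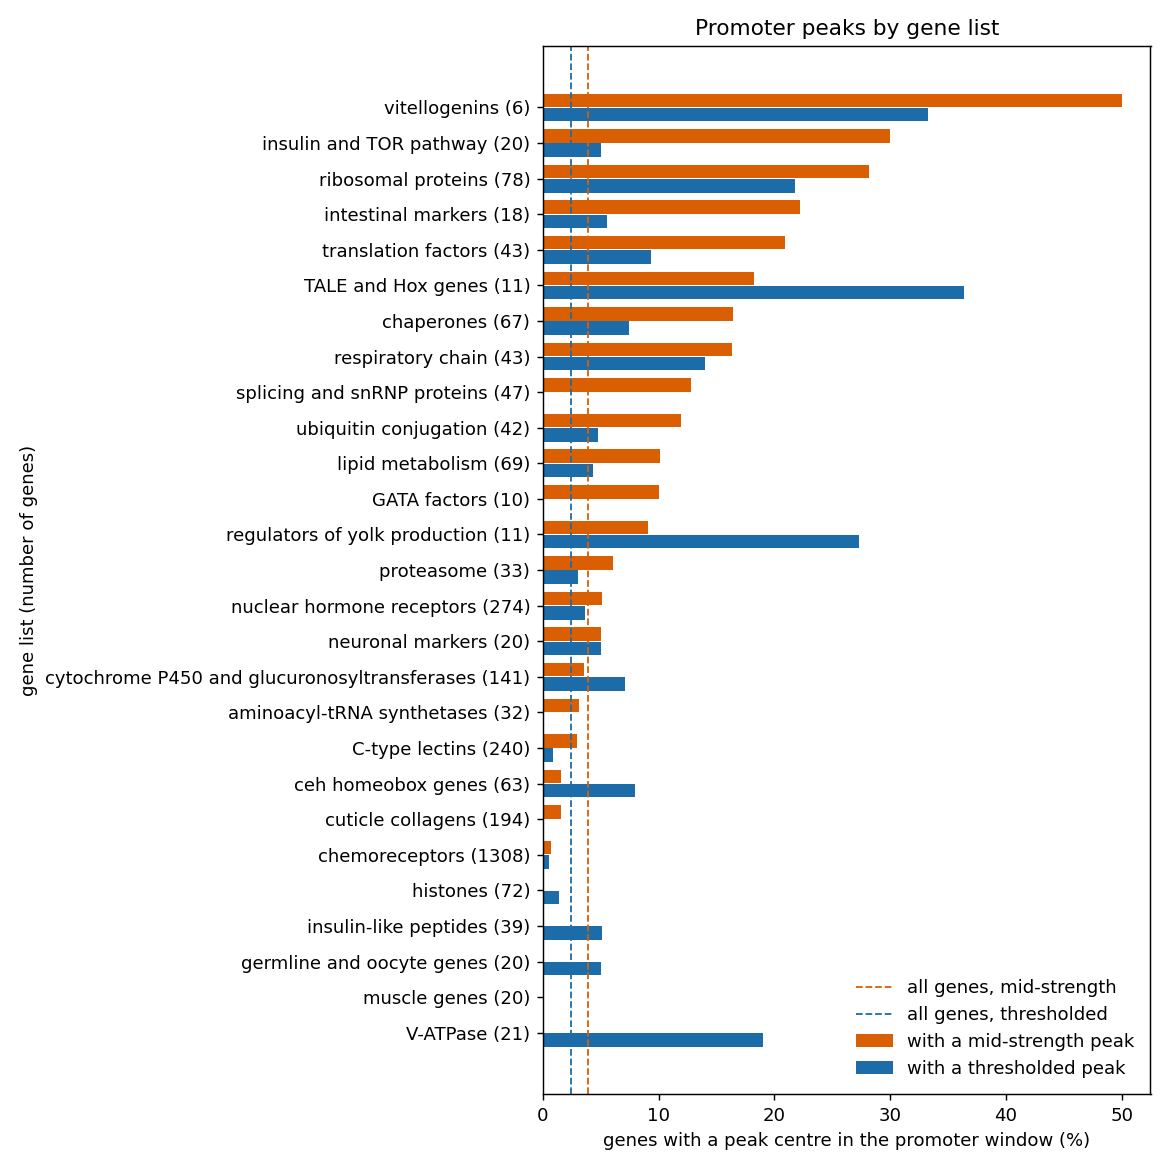
Share of the genes of each of 27 lists with a mid-strength peak centre (upper bar) and a thresholded one (lower bar) in the promoter, in percent, with the number of genes in brackets. Dashed lines mark the shares of all genes, 3.88% and 2.43%, and small lists rest on few genes.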

How the data were processed

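Peak lists of ChIP-seq from 2 replicates of 1 group were used. Per README texts deposited with the lists, a replicate list came from the alignment of that replicate and 1 further file, the pooled list from both alignments and that file, and the thresholded list from those 3 lists. The labels name possible controls. The sources used here give no aligner, peak caller or settings. The signal column, as deposited by the authors, gives the strength of a peak on a scale that the files do not state, and the −log10 of the q-value was used as deposited. Both chose or describe peaks and were not tested. Coordinates are those of the ce11 lists, 1-based, and the ce10 lists served as an alternative.

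The members of the class and the gene lists were chosen with earlier results of these data known. The signal of a peak in a replicate is that of the strongest overlapping peak. Centres were assigned to 1 location class in the order promoter, coding sequence, 5′ UTR, 3′ UTR, intron, noncoding gene, intergenic, from Ensembl release 115 for WBcel235. Words were searched on both strands within 50 bp of the deposited summit, in the RefSeq sequence of the same assembly. Shares were compared by Fisher's exact test, two-sided, with Benjamini-Hochberg adjustment over 7 classes, 4 words or chromosome X and both contrasts, and over 2080 words in each contrast of the scan. Differences carry Newcombe 95% intervals and shares exact (Clopper-Pearson) 95% intervals, and both cover counting of peaks only, since read depth is unknown. The scripts were tested on simulated data. Tests used scipy 1.17.1 under Python 3.11.15, tables pandas 2.3.3 and numpy 2.4.6, and plots matplotlib 3.10.9.

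Named genes were the nearest to the 12 peaks with the highest smaller replicate signal, to the 5 peaks nearest to each limit, up to 4 with the strongest mid-strength promoter peak in each list, and every vitellogenin, TALE and Hox gene. The genes outside it, named after their values were seen, are rps-4, rps-10, rpl-24.1, rpl-36, rps-14, nfx-1, and those with both kinds of peak. Alternatives covered the overlap rule, the lower signal limit, promoter and word windows, 1 peak per cluster, each replicate left out in turn, and the ce10 lists. Splits by promoter, GC content and thresholded signal were chosen after seeing the data.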

Additional observations from a re-analysis of the deposited data

How the results depend on the processing

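Over 53 alternatives of the counts and of the promoter, chromosome X and TGACAG comparisons, 46 kept their direction, their side of the threshold and, for counts, a value within 1.5 times. The number of mid-strength peaks moved with the lower limit by construction, to 501 at a limit of 25 and 2923 at 15, and lay between 1024 and 1234 under a stricter overlap, summits within 100 bp or the ce10 lists, and at 1362 and 1276 without replicate 1 and 2. The difference in TGACAG from thresholded peaks stayed between -12.3 and -8.51 points and that from weaker peaks between 2.79 and 6.73, all past the threshold by Fisher's exact test (highest adjusted p 3.4e-04 and 0.0206), and the promoter difference from weaker peaks between 9.96 and 14.2. The promoter difference from thresholded peaks, -0.603 points, changed sign to 1.69 with a window of 500 bp upstream and 100 bp downstream and to 4.04 in windows of 35 to 45% GC, and passed under no alternative (Fisher's exact adjusted p from 0.371 to 1.00). The cause was not tested. The chromosome X difference from weaker peaks, 2.91 points, passed with 1 peak per cluster (3.00, Fisher's exact adjusted p = 0.0462) and without replicate 1 or 2 (3.25 to 3.83), and not at a limit of 25 (3.03, Fisher's exact adjusted p = 0.244). Leaving out a replicate enlarged the weaker class too, in all comparisons with it. No paired analysis was possible because there is 1 group. Read depth is unknown, so whether a peak missed the thresholded list for want of reads could not be examined.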

Other observations

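The 37 genes with a mid-strength and a thresholded peak in their promoters, which are named here after their values were seen, include several regulators. At egl-44, which encodes a TEAD-type factor, the signals were 24.0 for the mid-strength peak (at -915 bp) and 42.6 for the thresholded one (at -250 bp). At nhr-1, a nuclear hormone receptor gene, they were 22.4 (at -331 bp) and 70.7 (at -387 bp from another start), and at din-1, which encodes a partner of the receptor DAF-12, 26.9 (at -42 bp) and 37.3 (at -723 bp). The pairs at flcn-1, the folliculin gene, had 28.4 and 40.3, and those at wdr-23, a negative regulator of SKN-1, 25.7 and 48.7. The mitochondrial enzyme gene aco-2 had 27.8 and 31.6 from the same peaks as eef-1B.1, which lies next to it. Counted over all genes, 15 had at least 2 mid-strength peaks in their promoters.

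Small RNA genes lay near some of these peaks. Of the 1263 mid-strength centres, 17 (1.35%) were within 200 bp of a tRNA gene, against 4 thresholded (0.491%) and 88 weaker centres (1.71%). For snoRNA genes the counts were 25 mid-strength (1.98%), 16 thresholded (1.96%) and 33 weaker centres (0.641%). These shares were not tested.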
